A study of Mus musculus with 10 samples.

Results

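The 44 genes described here drive the cell division cycle. They were taken as a list of mouse genes and found by symbol among the 17983 genes listed in the deposited files, and all 44 were listed in all 10 libraries and passed the filter on low values. By role, 17 act in DNA replication and 24 in mitosis, and 3 (Ccne1, Ccne2 and E2f1) regulate the step from G1 into S phase and were counted in neither. The question was how the replication genes and the mitosis genes differed over genotype and treatment in the epidermis.

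RNA was sequenced from keratinocytes of the back skin epidermis of mice, which were freed from the dermis with dispase and then trypsin. Control mice are labelled wild type. The other mice are labelled Gsdma1KO/KO;Gsdma3fx/fx;K14-Cre and are called knockout here: Gsdma1 was knocked out, and a floxed Gsdma3 was to be removed by Cre recombinase under the K14 promoter, a keratin promoter active in basal keratinocytes. Both genes encode gasdermins, a family of pore-forming proteins. The back skin was rubbed with acetone and olive oil (4 parts to 1) or with water (2 rubbings daily over 3 days), and was taken on day 5. There were 3 control and 3 knockout libraries under olive oil/acetone, and 2 control and 2 knockout libraries under water. The labels give no age and do not tie libraries to animals, so a p-value here reflects only how much these libraries varied, part of which may be technical.

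Before S phase, the helicase of the MCM proteins is loaded onto replication origins (licensing). In S phase it is activated, polymerases copy the DNA, and enzymes such as ribonucleotide reductase supply the nucleotides. Cyclin B with Cdk1 then drives mitosis, in which kinases and motor proteins build the spindle, and the anaphase-promoting complex with Cdc20 lets the chromatids part. In normal epidermis division takes place mostly in the basal layer and in the growing hair follicle, and it is known to increase after the skin barrier is disturbed. Many replication genes are known targets of E2F factors, and many mitosis genes are known to be controlled through a CHR element, often beside CCAAT boxes.

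The sequence upstream of the start site was therefore read for both kinds of genes. RefSeq windows of 250 bases upstream of a start site (build GRCm38.p6) were found for 34 of the 44 genes, 35 windows in all, and both strands were searched. The E2F-type letters were TTTCCCGC, TTTCGCGC, TTTGCCGC and TTTGGCGC, the CHR letters were TTTGAA and TTTAAA, and the CCAAT box was CCAAT. An E2F-type match was in 4 of 14 windows of replication genes (28.6%) and in 1 of 19 windows of mitosis genes (5.26%), against 1.86% of all 32841 windows. Of these 4 windows 2, those of Cdc6 and of a second start of Mcm7, start inside an annotated exon of the gene. Without these 2 windows, a choice made after seeing the data, 2 of 12 replication windows held a match (16.7%). The other Mcm7 window, without an E2F-type match, overlaps no exon but lies inside the annotated gene, and it was kept. A CHR match was in 12 of 19 mitosis windows (63.2%) and 3 of 14 replication windows (21.4%), against 25.2% of all windows. CCAAT was in 17 of 19 mitosis windows (89.5%) and 10 of 14 replication windows (71.4%), against 33.9% of all, and CCAAT together with CHR was in 11 of 19 mitosis windows (57.9%) and 2 of 14 replication windows (14.3%), against 8.78%. These matches describe letters, not bound sites, and no test was run on them. Among genes listed in all 10 files the shares were 3.03% for E2F-type, 18.4% for CHR and 34.7% for CCAAT.

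Shown here are the stretches upstream of Mcm2 and Mcm5, replication genes, and of Cdc20 and Ccnb2, mitosis genes, chosen for a low adjusted p between treatments in the knockout among genes of each kind with an E2F-type or CHR match. Cdk1 had the same adjusted p as Ccnb2 and a lower unadjusted p, and Ccnb2 was taken in alphabetical order; the Cdk1 window, not printed, held the E2F-type match of the mitosis genes and 2 CHR matches. Capitals mark every match on either strand. They lie at chr6:88898781-88899030 (Mcm2, minus strand), chr8:75109259-75109508 (Mcm5, plus strand), chr4:118437353-118437593 (Cdc20, minus strand, 241 bases, cut before the annotated exon) and chr9:70421555-70421804 (Ccnb2, minus strand), and each is written in the direction of its gene.
Mcm2: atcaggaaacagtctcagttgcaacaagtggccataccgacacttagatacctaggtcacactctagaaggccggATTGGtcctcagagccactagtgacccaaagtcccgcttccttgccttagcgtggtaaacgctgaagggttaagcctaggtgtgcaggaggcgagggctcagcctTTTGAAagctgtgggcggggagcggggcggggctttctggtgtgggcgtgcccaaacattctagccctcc
Mcm5: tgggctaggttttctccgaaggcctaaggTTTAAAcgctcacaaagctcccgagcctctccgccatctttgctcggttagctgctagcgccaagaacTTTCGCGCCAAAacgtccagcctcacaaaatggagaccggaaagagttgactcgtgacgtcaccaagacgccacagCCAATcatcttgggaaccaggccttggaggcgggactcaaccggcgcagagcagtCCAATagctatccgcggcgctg
Cdc20: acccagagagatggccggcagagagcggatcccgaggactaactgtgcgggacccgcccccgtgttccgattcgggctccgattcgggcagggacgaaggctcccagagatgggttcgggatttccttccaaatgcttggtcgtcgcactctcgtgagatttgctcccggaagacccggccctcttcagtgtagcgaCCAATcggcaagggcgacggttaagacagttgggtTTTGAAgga
Ccnb2: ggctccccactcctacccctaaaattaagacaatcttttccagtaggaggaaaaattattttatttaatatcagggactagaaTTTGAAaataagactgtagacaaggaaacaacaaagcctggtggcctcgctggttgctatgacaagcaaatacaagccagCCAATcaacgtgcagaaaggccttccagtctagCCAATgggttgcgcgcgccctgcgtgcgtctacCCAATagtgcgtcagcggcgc
In Mcm5 the E2F-type matches TTTCGCGC (146 to 153 bases upstream of the RefSeq start) and, on the other strand, TTTGGCGC (142 to 149 bases upstream) overlap, and the window also held TTTAAA at 216 to 221 and CCAAT at 18 to 22 and 73 to 77. The CHR match TTTGAA of Cdc20 lay 13 to 18 bases upstream of the start and a CCAAT lay at 49 to 53; the second CCAAT counted in its window was outside the printed stretch. In Ccnb2 the 3 CCAAT boxes lay 17 to 21, 50 to 54 and 83 to 87 bases upstream, and TTTGAA lay farther out, at 162 to 167. Mcm2 held TTTGAA at 65 to 70 and a CCAAT on the other strand at 171 to 175.

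Libraries held 15914663 to 21812292 reads recovered from the deposited values, and the replicate libraries of a group correlated at 0.955 to 0.984 (log2 values, all genes). Gsdma3 stood at 62.5 to 283 in the 5 control libraries and at 0 to 2.65 in the 5 knockout libraries. Gsdma, the annotation's symbol for Gsdma1, stood at 199.9 to 732 in the controls and at 170.2 to 843 in the knockouts, and the labels do not say which part of it was removed, so its counts check nothing. Basal keratinocyte markers were high in every library (summed level 541147 to 918672 over 12 genes). The 4 Y-linked genes summed to 3583 to 4967 in each olive oil/acetone library and were at 0 in each water library, so treatment and the presence of Y-linked transcripts divide the libraries in the same way and cannot be told apart. Control water replicate 2 stood apart in markers of the hair matrix, shaft and inner root sheath, which summed to 12738 there over 16 genes and to 676 to 3432 in the other 9 libraries.

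The replication and mitosis programmes were first set side by side in each library (the plot of replication and mitosis genes by library). The level of a programme is the median over its genes of log2(value + 1) relative to the gene's mean over the 4 groups, where the value is the normalised read count. In the knockouts, replication stood at -0.66 and -0.28 under water and at 0.47, 0.32 and 0.50 under olive oil/acetone. Mitosis stood at -1.22 and -0.90 under water and at 0.84, 0.71 and 0.96 under olive oil/acetone. The treatments did not overlap in either programme, and the step was larger for mitosis. In the controls, replication stood at -0.17 and 0.01 under water and at -0.08, 0.07 and 0.52 under olive oil/acetone. Mitosis stood at -0.65 and 0.10 under water and at -0.07, 0.68 and 1.21 under olive oil/acetone. Control olive oil/acetone replicate 1 lay below control water replicate 2 in both programmes, so the control treatments overlapped.

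**Figure D1:**
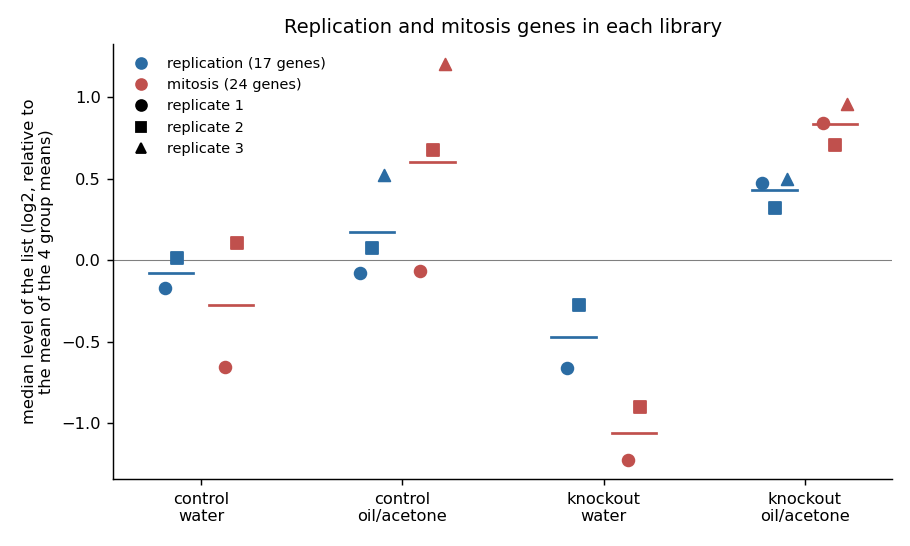
Median level of the 17 replication genes (blue) and 24 mitosis genes (red) in each library, in log2 relative to the mean of the 4 group means (vertical axis), by group (horizontal axis); symbols are replicates and bars are group means. The knockout water libraries were lowest, at -1.22 and -0.90 for mitosis, and the knockout olive oil/acetone libraries lay close together at 0.71 to 0.96, while the control libraries spread from -0.65 to 1.21.

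Summed counts gave the same picture on a linear scale, with gene length left as it is, so a ratio can be compared between libraries only. Abundant genes weigh most in such sums, such as Pcna, Rrm1 and Mcm6 for replication and Mki67 and Top2a for mitosis. The mitosis genes summed to 0.730 and 0.756 times the replication genes in the knockout water libraries, and to 1.54, 1.48 and 1.65 times in the knockout olive oil/acetone libraries. In the controls the ratio was 0.848 and 1.27 under water and 1.25, 1.79 and 1.89 under olive oil/acetone. The 2 control groups met at 1.27 and 1.25, whereas the knockout groups were far apart. In bulk RNA, a smaller share of dividing cells and less of these RNAs per cell cannot be told apart.

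Most of the variance of the 44 genes over the 10 libraries lay on 1 axis: the first principal component held 93.0% of it and the second 2.09%. Genes of large variance weigh most in it, the points were the libraries, and the genes shared each library's depth and cell mix. Not every gene followed it: Pcna was highest in knockout water replicate 2 and Ccne2 in control water replicate 1. Knockout water replicate 1 was the lowest of the 10 libraries for 33 of the 44 genes. Control olive oil/acetone replicate 3 was the highest for 25, and knockout olive oil/acetone replicate 1 for 12. The heat map of the 44 genes shows this gene by gene.

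**Figure D2:**
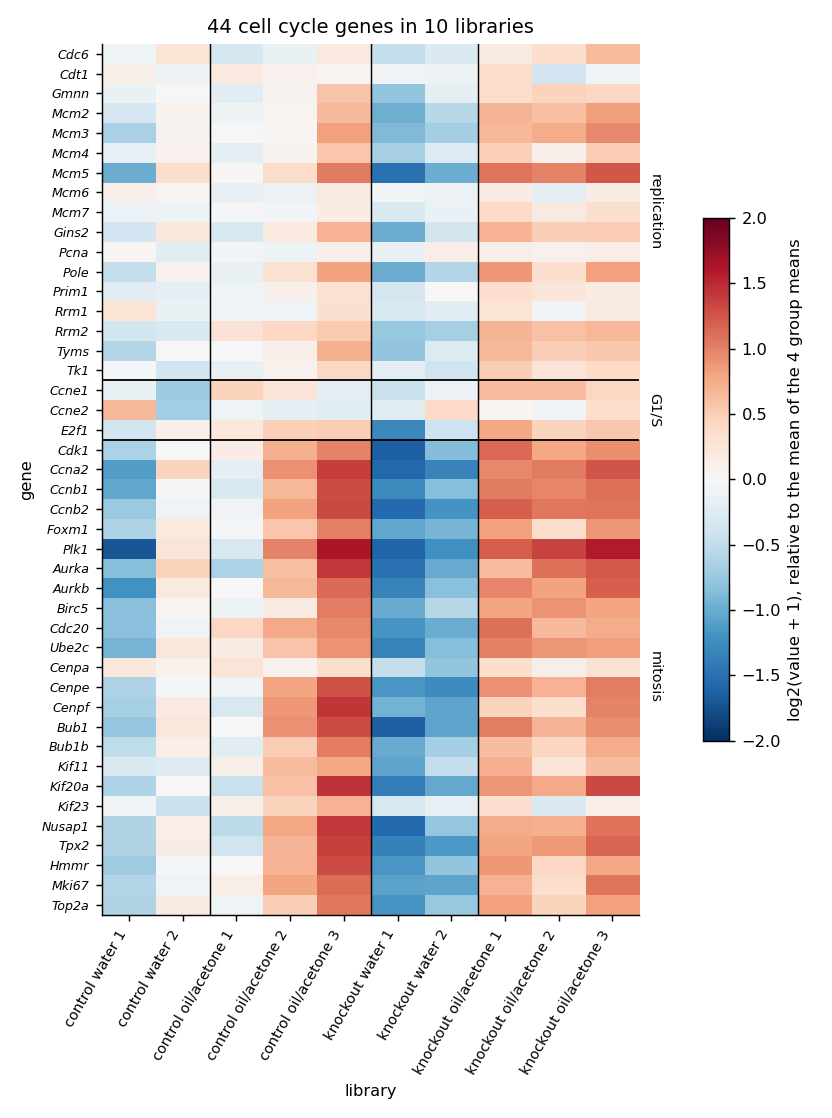
Level of each of the 44 genes (rows, by role) in each of the 10 libraries (columns, by group), in log2(value + 1) relative to the mean of the 4 group means; red is above and blue below. Most mitosis genes are blue in both knockout water libraries and red in all 3 knockout olive oil/acetone libraries, whereas rows such as Pcna, Mcm6 and Cdt1 stay pale.

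Olive oil/acetone was compared with water within the knockouts. Cell cycle genes were higher under olive oil/acetone: 35 of the 44 rose and 0 fell, by limma over the 15958 genes tested (called: p under 0.05 after Benjamini-Hochberg adjustment). Of all genes tested, 6.74% rose and 13.4% changed in either direction. EdgeR called 34 of the 44 (6.12% of all genes rose) and DESeq2 37 (11.8%). Among mitosis genes 23 of 24 rose, with a median log2 difference of 2.01, and among replication genes 11 of 17, with a median of 0.82, beside a median of 0.01 over all genes tested. Of the 3 G1/S regulators only E2f1 rose. The libraries of the 2 treatments did not overlap for 39 of the 44 genes, each higher under olive oil/acetone, against 28.8% of all genes tested.

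The calls rest on 2 water libraries. Leaving out knockout water replicate 1 ended all 35 calls, and leaving out knockout water replicate 2 ended most of them. Without knockout olive oil/acetone replicate 3 there were 9 calls and without replicate 2 there were 23. The share of all genes tested that was called in these fits is not given here, so the counts describe only how stable the calls were. No called gene changed sign in any of these fits: Cdk1, for example, had log2 differences of 1.80 to 2.57 over all settings tried. In each fit that leaves 1 water library, that library is assumed to vary like the other groups.

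Licensing genes came first in the cycle, and 7 of the 10 rose. Mcm5, a subunit of the replicative helicase (chr8:75109569-75128439), stood at 189 and 268 in the knockout water libraries and at 1123, 1062 and 1269 in the knockout olive oil/acetone libraries (log2 difference 2.35, SE 0.38, adjusted p = 0.012), which was the largest difference among the replication genes. In the controls it stood at 267 and 680.2 under water and at 544, 691 and 1097 under olive oil/acetone, and those treatments overlapped. Its partner subunit Mcm2 stood at 329.9 and 440.4 under water and at 1043, 991 and 1159 under olive oil/acetone in the knockouts (log2 difference 1.48, SE 0.24, adjusted p = 0.012). The Mcm2 control libraries read 515 and 685 under water and 606, 675 and 1017 under olive oil/acetone, with the first of the latter below the second water library. Mcm3, also a helicase subunit, stood at 263 and 304 under water and 774, 815 and 947 under olive oil/acetone in the knockouts (log2 difference 1.57, SE 0.28, adjusted p = 0.0147), and at 309 and 514 under water and 492, 501 and 863 under olive oil/acetone in the controls. Gmnn, Mcm4, Mcm7 and Gins2, which are an inhibitor of licensing, 2 helicase subunits and a helicase cofactor, also rose, by 0.50 (Mcm7) to 1.24 (Gins2) in log2, and Gmnn passed only narrowly (adjusted p = 0.0499) and was not called by edgeR (adjusted p = 0.0579).

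Members of the same complex differed in size of response. Mcm6, a helicase subunit that was not called, stood at 1461 and 1400.2 under water and 1707, 1327 and 1689 under olive oil/acetone in the knockouts (log2 difference 0.13, SE 0.16, adjusted p = 0.598), and these groups overlapped, so Mcm5 and Mcm6, subunits of 1 complex, had log2 differences of 2.35 and 0.13 in the same libraries. No difference between genes was tested. Cdt1, which loads the helicase, had the highest adjusted p of the licensing genes, with 594 and 578 under water and 801, 477 and 591 under olive oil/acetone in the knockouts and 673 and 578 under water and 714, 661 and 645 under olive oil/acetone in the controls (log2 difference 0.06, SE 0.21, adjusted p = 0.866). The Cdt1 libraries of the treatments overlapped in both genotypes. Cdc6, its partner in loading, did not overlap between treatments in the knockouts and was not called by limma (log2 difference 0.78, SE 0.28, adjusted p = 0.0781), whereas DESeq2 called it (adjusted p = 0.0422).

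Of the 7 genes of DNA synthesis and nucleotide supply, 4 rose. Rrm2, the small subunit of ribonucleotide reductase (chr12:24708241-24714146), stood at 299.9 and 319.9 under water and at 819, 766 and 805 under olive oil/acetone in the knockouts, and its adjusted p of 0.00282 was the lowest of all 44 genes (log2 difference 1.36, SE 0.15). Its libraries were tight in every group, and in the controls it read 394 and 409 under water and 618, 677 and 732 under olive oil/acetone, without overlap. Pole, the catalytic subunit of polymerase epsilon, stood at 105 and 139.9 under water and 385, 262 and 369.9 under olive oil/acetone in the knockouts (log2 difference 1.46, SE 0.31, adjusted p = 0.0219) and at 149.9 and 222 under water and 189, 260.0 and 366 under olive oil/acetone in the controls, where treatments overlapped. Tyms, thymidylate synthase, stood at 189 and 270.1 under water and 518, 459.9 and 476 under olive oil/acetone in the knockouts (log2 difference 1.10, SE 0.27, adjusted p = 0.0303) and at 217 and 326 under water and 329.6, 351 and 538 under olive oil/acetone in the controls. Tk1, thymidine kinase, rose by less (log2 difference 0.67, SE 0.20, adjusted p = 0.048).

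Pcna, the sliding clamp of the polymerases (chr2:132249162-132253314), was the flattest of this group. It stood at 2082 and 2511 under water and at 2508, 2432 and 2500.4 under olive oil/acetone in the knockouts, and at 2352 and 1946 under water and 2199, 2138 and 2456 under olive oil/acetone in the controls (log2 difference 0.12, SE 0.15, adjusted p = 0.591 in the knockouts). The Pcna libraries of the treatments overlapped in both genotypes. Prim1, a primase subunit, and Rrm1, the large subunit of ribonucleotide reductase, were not called (log2 differences 0.43 and 0.40, adjusted p = 0.121 and 0.149), although their knockout libraries did not overlap. Pcna, Tyms and other genes of this list have close pseudogene copies, and how reads shared with such copies were counted is not given in the sources used here.

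The 3 regulators of entry into S phase differed among themselves. E2f1, a transcription factor of replication genes, stood at 90.8 and 167 under water and at 379.8, 304 and 325 under olive oil/acetone in the knockouts (log2 difference 1.44, SE 0.27, adjusted p = 0.0161) and at 173 and 238 under water and 259, 309.7 and 316 under olive oil/acetone in the controls. It did not overlap between treatments in either genotype. Ccne1, cyclin E1, stood at 82.0 and 103 under water and 173, 172 and 149 under olive oil/acetone in the knockouts and at 102 and 67.5 under water and 152, 134 and 97.8 under olive oil/acetone in the controls (log2 difference 0.83, SE 0.28, adjusted p = 0.0687 in the knockouts), and DESeq2 called it in the knockouts. Ccne2, cyclin E2, stood at 110.2 and 170.3 under water and 135, 126 and 168 under olive oil/acetone in the knockouts and at 208 and 80.6 under water and 123, 114 and 113 under olive oil/acetone in the controls, with overlap in both (log2 difference 0.05, SE 0.37, adjusted p = 0.939 in the knockouts).

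The plot of 9 genes by library shows these patterns beside those of mitosis genes.

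**Figure D3:**
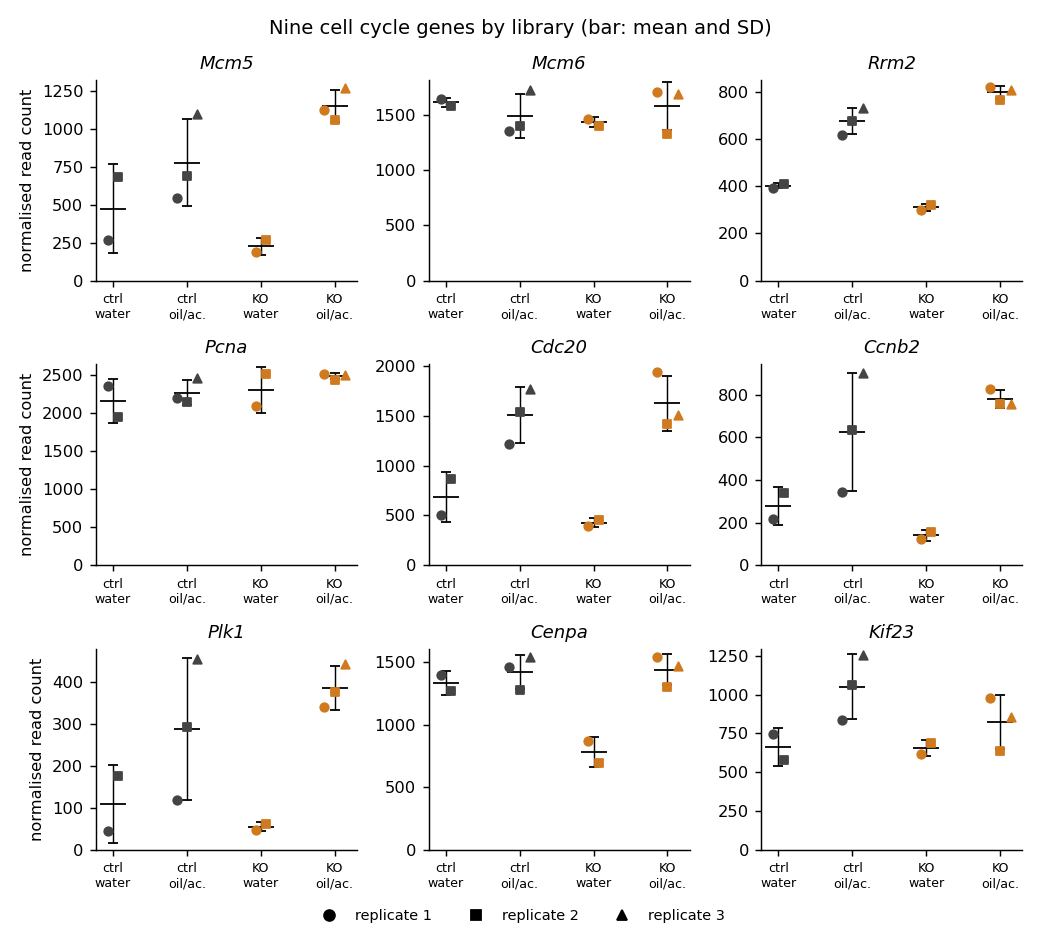
Normalised read count (vertical axes, linear, from 0) of 9 cell cycle genes in each library, by group (ctrl, control; KO, knockout; oil/ac., olive oil/acetone); symbols are replicates, and bars are the mean and SD of 2 or 3 libraries. Mcm5, Rrm2, Cdc20, Ccnb2 and Plk1 are low in both knockout water libraries, whereas Pcna and Mcm6 are level over the groups and Kif23 overlaps between the knockout treatments.

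All 5 genes of the engine that drives cells from G2 into mitosis rose. Cdk1, the mitotic kinase (chr10:69335146-69352938), stood at 153 and 262 under water and at 1049, 812 and 908 under olive oil/acetone in the knockouts (log2 difference 2.19, SE 0.31, adjusted p = 0.00796), and at 306 and 476 under water and 526, 784 and 953 under olive oil/acetone in the controls. Ccnb2, cyclin B2 (chr9:70407692-70421547), stood at 123 and 157 under water and 828, 754 and 758 under olive oil/acetone in the knockouts (log2 difference 2.48, SE 0.35, adjusted p = 0.00796) and at 216 and 340.1 under water and 345, 633 and 899.7 under olive oil/acetone in the controls. For both genes the highest water library of either genotype lay below every olive oil/acetone library, the nearest being control water replicate 2 and control olive oil/acetone replicate 1. Ccna2, cyclin A2, which acts in S phase and G2, stood at 131 and 153 under water and 761, 798 and 935 under olive oil/acetone in the knockouts (log2 difference 2.54, SE 0.47, adjusted p = 0.0156) and at 179.7 and 533 under water and 345, 735 and 1014 under olive oil/acetone in the controls. Ccnb1, cyclin B1, stood at 191 and 255 under water and 952, 904 and 991 under olive oil/acetone in the knockouts (log2 difference 2.10, SE 0.41, adjusted p = 0.0172) and at 224 and 448 under water and 374, 731 and 1137 under olive oil/acetone in the controls. For both of these cyclins control olive oil/acetone replicate 1 lay below control water replicate 2. Foxm1, a transcription factor of mitosis genes, rose by 1.67 (SE 0.32, adjusted p = 0.0163).

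The 4 mitotic kinases and chromosomal passenger genes rose as well. Plk1, polo-like kinase 1 (chr7:122159439-122169873), had the largest difference of the 44 genes, from 47.6 and 62.0 under water to 340.4, 375 and 444 under olive oil/acetone in the knockouts (log2 difference 2.80, SE 0.59, adjusted p = 0.0215). Its control libraries were scattered, with 44.2 and 175 under water and 118, 293 and 456 under olive oil/acetone. Aurkb, aurora kinase B, stood at 98.8 and 139.9 under water and 495, 439 and 575 under olive oil/acetone in the knockouts (log2 difference 2.08, SE 0.41, adjusted p = 0.0181) and at 108 and 289 under water and 252, 400.5 and 555 under olive oil/acetone in the controls. Birc5 (survivin), which sits with Aurkb in the passenger complex, stood at 151 and 204 under water and 529.8, 571 and 526 under olive oil/acetone in the knockouts (log2 difference 1.62, SE 0.34, adjusted p = 0.0209) and at 171 and 313 under water and 284, 346 and 622 under olive oil/acetone in the controls. Aurka, the kinase of the spindle poles, stood at 44.1 and 62.0 under water and 192, 270.4 and 295 under olive oil/acetone in the knockouts (log2 difference 2.23, SE 0.55, adjusted p = 0.0314) and at 69.2 and 174 under water and 80.7, 191 and 338 under olive oil/acetone in the controls. The knockout treatments did not overlap for any of the 4. In the controls all 4 genes had control olive oil/acetone replicate 1 below control water replicate 2.

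Both genes of anaphase promotion rose. Cdc20, the activator of the anaphase-promoting complex (chr4:118432901-118437352), stood at 399 and 457 under water and at 1942, 1419 and 1513 under olive oil/acetone in the knockouts (log2 difference 1.91, SE 0.25, adjusted p = 0.0067). Unlike the kinases, it did not overlap between treatments in the controls either, where it read 509 and 867 under water and 1217, 1539 and 1769.7 under olive oil/acetone. Ube2c, the ubiquitin-conjugating enzyme of that complex, stood at 224 and 314 under water and 1147, 1046 and 1011 under olive oil/acetone in the knockouts (log2 difference 2.0, SE 0.32, adjusted p = 0.012) and at 298 and 666 under water and 636, 845 and 1062 under olive oil/acetone in the controls, where control olive oil/acetone replicate 1 lay just below control water replicate 2.

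Among genes of the centromere and the spindle checkpoint all 5 rose. Cenpe, a kinetochore motor, stood at 161 and 151 under water and 684, 592 and 743 under olive oil/acetone in the knockouts (log2 difference 2.10, SE 0.33, adjusted p = 0.012) and at 237 and 352 under water and 347, 626 and 879 under olive oil/acetone in the controls. Bub1, a checkpoint kinase, stood at 45.0 and 68.1 under water and 289.7, 229 and 273 under olive oil/acetone in the knockouts (log2 difference 2.22, SE 0.40, adjusted p = 0.0151) and at 82.7 and 167 under water and 142, 268 and 352 under olive oil/acetone in the controls. Cenpf, a protein of the outer kinetochore, had the highest adjusted p of the group, with 219 and 202 under water and 576, 533 and 834 under olive oil/acetone in the knockouts (log2 difference 1.59, SE 0.44, adjusted p = 0.0418) and 264 and 472 under water and 336, 771 and 1133 under olive oil/acetone in the controls. Cenpa, the histone H3 variant of centromeres, had a different shape over the groups. It stood at 869 and 695 in the knockout water libraries, at 1545, 1303 and 1475 in the knockout olive oil/acetone libraries (log2 difference 0.89, SE 0.16, adjusted p = 0.0147), and at 1401 and 1268 under water and 1459.8, 1277 and 1543 under olive oil/acetone in the controls, so that only the knockout water libraries were low. For all 5 genes the treatments did not overlap in the knockouts and overlapped in the controls. Bub1b, the partner of Bub1, rose by 1.43 (adjusted p = 0.0249).

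Of the 6 spindle genes 5 rose. Kif11, the motor that pushes spindle poles apart, stood at 369 and 554 under water and 1269, 916 and 1176 under olive oil/acetone in the knockouts (log2 difference 1.29, SE 0.24, adjusted p = 0.0156) and at 630.5 and 646 under water and 836, 1196 and 1312 under olive oil/acetone in the controls, without overlap in either genotype. Tpx2, which activates Aurka on the spindle, stood at 172 and 198 under water and 766, 794 and 987 under olive oil/acetone in the knockouts (log2 difference 2.19, SE 0.42, adjusted p = 0.0167) and at 289 and 488 under water and 333, 707 and 1141 under olive oil/acetone in the controls. Kif20a, a kinesin of the central spindle, stood at 68.8 and 88.8 under water and 337, 307 and 457 under olive oil/acetone in the knockouts (log2 difference 2.20, SE 0.45, adjusted p = 0.0201) and at 118 and 181 under water and 132, 272 and 494 under olive oil/acetone in the controls. Tpx2 and Kif20a did not overlap between treatments in the knockouts and did in the controls. Nusap1 and Hmmr, both spindle-binding proteins, rose by 2.01 and 1.66 (adjusted p = 0.0286 and 0.0214).

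Kif23, a kinesin of the central spindle that acts in cytokinesis (chr9:61915905-61946774), was the mitosis gene that was not called. It stood at 620.0 and 691 under water and at 982, 636 and 855 under olive oil/acetone in the knockouts (log2 difference 0.31, SE 0.23, adjusted p = 0.354), where knockout olive oil/acetone replicate 2 lay between the water libraries. In the controls it stood at 749.6 and 576 under water and 839, 1063 and 1257 under olive oil/acetone without overlap, and its log2 difference there (0.66, SE 0.23, adjusted p = 0.284) was larger than in the knockouts.

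Both chromosome genes rose. Mki67, the proliferation marker that coats mitotic chromosomes, stood at 1281 and 1296 under water and at 4362, 3430.2 and 5637 under olive oil/acetone in the knockouts (log2 difference 1.77, SE 0.29, adjusted p = 0.012) and at 1794 and 2553 under water and 2944, 4628 and 5826 under olive oil/acetone in the controls. Its 2 knockout water libraries were nearly equal, and no treatment groups overlapped. Top2a, topoisomerase II alpha, stood at 953 and 1266 under water and 3794, 2925 and 3799 under olive oil/acetone in the knockouts (log2 difference 1.66, SE 0.32, adjusted p = 0.0166) and at 1422 and 2421 under water and 2038, 3036 and 4455 under olive oil/acetone in the controls, where control water replicate 2 lay above control olive oil/acetone replicate 1.

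The plot of differences gene by gene puts the genotypes beside each other. In the knockouts the replication genes ran from 0.06 (Cdt1) to 2.35 (Mcm5) in log2 and the mitosis genes from 0.31 (Kif23) to 2.80 (Plk1). The median of the mitosis genes exceeded that of the replication genes by 1.19, where the pooled SD within groups of the library-level difference between programmes was 0.28. That library-level difference, mitosis minus replication, stood at -0.56 and -0.62 in the knockout water libraries and at 0.37, 0.39 and 0.46 in the knockout olive oil/acetone libraries. The gap between programmes lay between 1.10 and 1.23 under each alternative tried, and no test was run on it because the lists were chosen with earlier results of these data known.

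**Figure D4:**
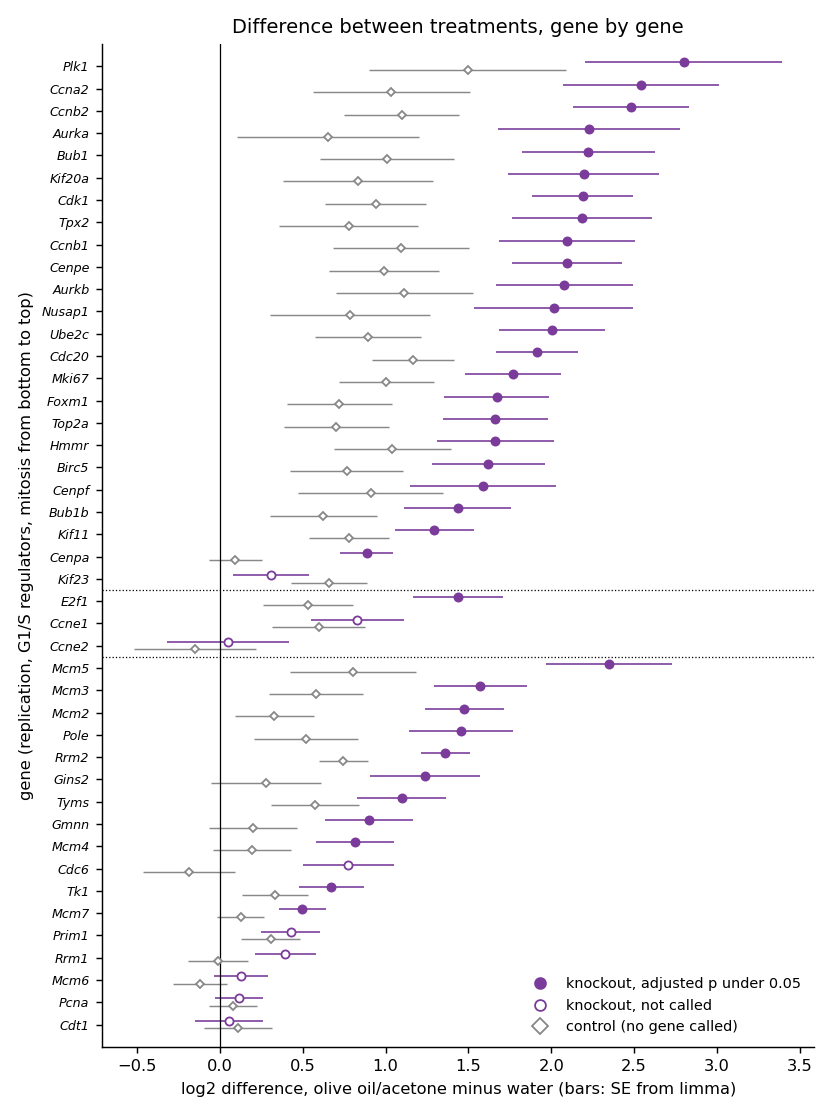
Log2 difference between olive oil/acetone and water for each of the 44 genes (horizontal axis), in knockouts (purple circles, filled where the limma adjusted p was under 0.05) and controls (grey diamonds, none called), with bars of 1 SE; genes are grouped as replication, G1/S regulators and mitosis from bottom to top. The mitosis genes reach 2.80 in the knockouts and 1.5 in the controls (both Plk1), and replication genes such as Pcna (0.12 and 0.08) lie near 0 in both.

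Markers of other cells also moved with the treatment in the knockouts. All 5 red blood cell genes rose, and their sum went from 1176 and 2544 under water to 14407, 27549 and 14786 under olive oil/acetone, with Hbb-bs at 1062 ± 612 (SD, n = 2) and 9912 ± 3731 (SD, n = 3). Of 10 endothelial genes 3 rose (Pecam1, Egfl7 and Vwf), and their sum went from 224 and 549.9 to 921, 1131 and 795. Of 10 suprabasal keratinocyte genes 3 rose (Krt1, Dsc1 and Flg), but the list was mixed, with 6 positive and 4 negative log2 differences and a list median of 0.24. Elovl3 rose among 10 sebocyte genes and Mfge8 among 10 Langerhans and dendritic cell genes, Fbln1 rose and Lum fell among 10 fibroblast genes, and limma called 0 of 7 melanocyte genes (1 at an unadjusted p under 0.05) and 0 of 9 epidermal T cell genes (0 unadjusted). Of 12 basal keratinocyte genes 3 fell (Krt15, Trp63 and Dst), with a list median of -0.78, the opposite sign to that of the cell cycle genes. Of 16 hair matrix, shaft and inner root sheath genes, which mark a follicle compartment that divides, 14 had a positive log2 difference, with a list median of 2.05, the same sign as that of the cell cycle genes, 0 rose by limma (4 had an unadjusted p under 0.05 in either direction) and 1 fell (Foxn1). They stood at 830, 3432 and 1566 in summed level in the 3 knockout olive oil/acetone libraries and at 778 and 894 in the knockout water libraries. Their median level in log2, computed as for the programmes, was -0.29, 2.36 and 1.03 in the former and -0.92 and -0.55 in the latter. The part of these cells in the cell cycle result was not tested.

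In the controls, the same comparison of treatments pointed the same way but called no cell cycle gene. Of the 44 genes 40 had a positive log2 difference, with a median of 0.90 for mitosis genes (24 of 24 positive) and 0.28 for replication genes (14 of 17 positive), beside 0.00 over all genes tested. With limma 0 of 44 were called (0.0564% of all genes tested rose), 16 had an unadjusted p under 0.05, all higher (4.91% of all genes tested), and of these 15 were mitosis genes and 1, Rrm2, a replication gene. EdgeR called 0 (0.0376% of all genes tested rose), and DESeq2 called 3: Rrm2, Cdc20 and Mki67 (0.840% of all genes tested rose with DESeq2). Rrm2 had the lowest adjusted p with limma (log2 difference 0.75, SE 0.15, adjusted p = 0.108), followed by Cdc20 (log2 difference 1.16, SE 0.25, adjusted p = 0.132). The treatments did not overlap for 12 of the 44 genes, against 12.2% of all genes tested. Markers of other cells also differed in level here, with 0 of each list below called by limma. All 9 epidermal T cell genes were lower under olive oil/acetone (list median -0.94, 8 with an unadjusted p under 0.05), with sums of 26006 and 17445 under water and 17735, 10432 and 7517 under olive oil/acetone. Of 10 Langerhans and dendritic cell genes 9 were lower (median -0.93, 6 unadjusted), all 5 red blood cell genes were higher (median 1.0, 1 unadjusted), and lower values were found for 13 of 16 hair genes (median -2.17, 4 unadjusted) and all 10 sebocyte genes (median -0.77, 5 unadjusted). Their part in the cell cycle values was not tested.

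In the median over these genes, the control libraries were more spread than those of the knockouts under both treatments. Among the 3 control olive oil/acetone libraries the highest value was a median of 2.41 times the lowest for mitosis genes, up to 4.19 times for Aurka, and 1.47 times for replication genes. Among the 3 knockout olive oil/acetone libraries these ratios were 1.30 and 1.18. Between the 2 water libraries the median ratio for mitosis genes was 1.69 in the controls, up to 3.96 for Plk1, and 1.30 in the knockouts. For replication genes it was 1.27 and 1.21. Without control olive oil/acetone replicate 1, limma called 8 genes in the controls: Ccnb2, Cenpe, Cdc20, Rrm2, Mki67, Ccnb1, Hmmr and Cenpf. The share of all genes tested that was called in that fit is not given here, so this count is not read as particular to these genes. Control water replicate 2, the library with high hair follicle markers, was the higher of the 2 control water libraries in both programmes. The gap between the medians of mitosis and replication genes was 0.63 in the controls, 0.31 without control water replicate 1 and 0.95 without control water replicate 2.

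Under olive oil/acetone, knockout and control were then compared. No cell cycle gene was called by limma, edgeR or DESeq2 (0 of 44 with each), beside 0.00% of all genes tested with limma and edgeR and 1.16% with DESeq2. Mcm2 alone had an unadjusted p under 0.05 (1043, 991 and 1159 in the knockouts and 606, 675 and 1017 in the controls, log2 difference 0.51, SE 0.21, adjusted p = 0.399), beside 5.47% of all genes tested that were higher at that p. The median log2 difference was 0.27 for replication genes and 0.25 for mitosis genes, a gap between programmes of -0.02 (-0.19 to 0.11 with 1 library left out). The genotypes did not overlap for 3 genes, Mcm7, Rrm2 and Ccne2, each higher in the knockouts, against 8.55% of all genes tested. Beside this, with 0 called by limma, all 12 basal keratinocyte genes were lower in the knockouts (list median -0.75, 10 unadjusted), and the 10 genes each of the sebocyte, Langerhans and dendritic, and endothelial lists were all higher (medians 1.24, 1.14 and 1.60, with 8, 8 and 5 unadjusted). Of 16 hair genes 14 were higher and 2 lower (median 2.05, 3 unadjusted in either direction), and all 5 red blood cell genes were higher (median 0.99, 3 unadjusted), again with 0 called. Their part was not tested.

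Under water the knockouts read lower than the controls, but again no gene was called by limma, edgeR or DESeq2. Of the 44 genes 40 had a negative log2 difference, with a median of -0.37 for replication genes and -0.75 for mitosis genes, and 24 of 24 mitosis genes were negative. Limma and edgeR called 0.00% of all genes tested and DESeq2 0.0376%, and with limma 13 of the 44 had an unadjusted p under 0.05, all lower, against 3.22% of all genes tested. Cenpa had the lowest of these (869 and 695 in the knockouts and 1401 and 1268 in the controls, log2 difference -0.78, SE 0.17, adjusted p = 0.963). Knockout and control libraries did not overlap for 29 of the 44 genes, each lower in the knockouts, against 17.8% of all genes tested. These were 18 mitosis genes, 10 replication genes and 1 G1/S regulator. Some other marker lists were lower too, with 0 called by limma. All 5 red blood cell genes were lower (list median -1.42, 5 unadjusted), with sums of 1176 and 2544 in the knockouts and 3321 and 6497 in the controls. So were all 9 epidermal T cell genes (median -0.68, 4 unadjusted), with sums of 14156 and 13256 against 26006 and 17445. Hair genes were lower in 15 of 16 (median -1.87, 0 unadjusted). Keratinocyte lists went the other way: 9 of 10 suprabasal genes (median 0.44, 0 unadjusted) and 9 of 12 basal genes (median 0.16, 0 unadjusted) were higher in the knockouts. Their part in the cell cycle values was not tested. The programmes' medians differed by -0.38, and by -0.68 without control water replicate 1 and -0.12 without control water replicate 2.

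The difference between genotypes in their response to treatment was tested as an interaction. It shares the knockout water and all other libraries with the comparisons above. Of the 44 genes 42 had a positive interaction, with a median of 0.61 for replication genes and 0.98 for mitosis genes, beside 0.03 over all genes tested. None was called by limma, edgeR or DESeq2 (0 of 44 with each, beside 0.00% of all genes tested with limma and edgeR and 1.10% with DESeq2), and 13 had an unadjusted p under 0.05 with limma, all positive, against 6.15% of all genes tested. The lowest adjusted p was that of Cenpa and Mcm2 (0.356 for both), with interactions of 0.79 (SE 0.22) and 1.15 (SE 0.34). Marker lists had interactions as well, with 0 called: the median was 2.46 for the 5 red blood cell genes (5 unadjusted), 2.21 for 10 endothelial genes (7 unadjusted), 1.63 for 10 sebocyte genes (6 unadjusted), 1.46 for 10 Langerhans and dendritic cell genes (7 unadjusted), 3.73 for 16 hair genes (6 unadjusted) and -0.85 for 12 basal genes (7 unadjusted), and their part was not tested. A response of the 44 genes that differs between genotypes was thus not shown, although 35 were called in the knockouts and 0 in the controls. The gap between mitosis and replication genes in the interaction was 0.37, and it was -0.049 without control water replicate 2, 0.70 without control water replicate 1 and 0.22 without control olive oil/acetone replicate 1.

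The wider cell cycle was read from 5 further lists, in the knockout comparison of treatments (6.74% of all genes tested rose and 6.69% fell). Of 35 other replication genes 22 rose and 0 fell, with a median log2 difference of 1.05. Chaf1a, a subunit of the chromatin assembly factor behind the replication fork, stood at 148 and 207 under water and at 452, 409.6 and 431 under olive oil/acetone (log2 difference 1.29, SE 0.20, adjusted p = 0.0105). Mcm10, which helps to activate the helicase, stood at 29.1 and 19.5 under water and 159, 161 and 191 under olive oil/acetone (log2 difference 2.78, SE 0.49, adjusted p = 0.0147). Of 42 other mitosis genes 31 rose and 0 fell, with a median of 1.62. Nuf2, a kinetochore protein, stood at 82.9 and 94.9 under water and 317, 305 and 332 under olive oil/acetone (log2 difference 1.83, SE 0.24, adjusted p = 0.0067). Kif15, a spindle kinesin, stood at 105.8 and 87.6 under water and 425, 372 and 487 under olive oil/acetone (log2 difference 2.13, SE 0.33, adjusted p = 0.0104). The knockout treatments did not overlap in any of these 4 genes. In the controls 0 genes of either list were called by limma, with 7 of the 35 and 16 of the 42 at an unadjusted p under 0.05, all of them higher, against 12.9% of all genes tested in either direction and 4.91% higher.

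The other 3 lists held few called genes, and no test compared them with the lists above. Of 9 genes of the G1 cyclins, their kinases and the retinoblastoma family 2 fell and 0 rose. Ccnd2, cyclin D2, stood at 8663 and 8599 under water and at 4440.3, 2667 and 3717 under olive oil/acetone in the knockouts (log2 difference -1.29, SE 0.28, adjusted p = 0.0224). Rb1, which restrains E2F factors, stood at 1525 and 1465 under water and 1006, 810.2 and 874 under olive oil/acetone (log2 difference -0.74, SE 0.18, adjusted p = 0.0301). Neither gene overlapped between the knockout treatments. Of 6 inhibitors of cyclin-dependent kinases that were tested 1 rose: Cdkn2c (p18), which stood at 216 and 229.9 under water and 419, 525 and 514 under olive oil/acetone (log2 difference 1.11, SE 0.28, adjusted p = 0.033). Cdkn1a (p21), a brake on cyclin-dependent kinases, stood at 11449 and 12503 under water and 7973, 9374 and 6214 under olive oil/acetone and was not called (log2 difference -0.63, SE 0.19, adjusted p = 0.055). Of 15 other genes of the E2F and MuvB families 2 rose, E2f2, an activating E2F, with 245 and 369 under water and 930.3, 896 and 911 under olive oil/acetone (log2 difference 1.60, SE 0.25, adjusted p = 0.0105), and Mybl2, the Myb protein that works with MuvB, with 51.2 and 85.2 under water and 213, 239 and 247 under olive oil/acetone (log2 difference 1.80, SE 0.43, adjusted p = 0.0293). The other members of these 3 lists, such as Cdk2, Cdk4, E2f3 and Lin9, were not called. In the controls 0 genes of these 3 lists were called by limma, and 6 had an unadjusted p under 0.05, 5 of them higher.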

How the data were processed

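Total RNA of 10 libraries was measured. The authors deposited 1 normalized signal value per gene and library. The submitters' processing notes list DESeq2 1.26.0, featureCounts 2.0.0, Trimmomatic 0.38 and the build GRCm38 (mm10), without their roles. Not given in the sources used here: aligner, annotation release, strand setting. Within each library 100% of values were whole multiples of 1 step (tolerance 0.1 read), which recovered whole reads. All 17983 identifiers matched GENCODE vM21.

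The 15987 genes listed in all 10 files were divided by median-of-ratios factors (0.995 to 1.004), and 15958 genes at 10 or more in at least 2 libraries entered limma 3.58.1 as log2(value + 1) (R 4.3.3; eBayes with a trend, 1 model of 4 group means, two-sided, Benjamini-Hochberg adjustment over all genes tested). On this scale the changes of weakly expressed genes come out too small. All adjusted p-values are from limma unless another tool is named. EdgeR 4.0.16 (quasi-likelihood) and DESeq2 1.42.0 on recovered reads, other scalings, pseudocounts and filters, and leaving out each library were alternatives. Only the limma code was tested on simulated counts.

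The members, lists and rules were chosen with earlier results of these data known. Values per library were given for up to 3 members with the lowest and 1 with the highest adjusted p of each of 9 role groups in the knockout treatment comparison, and for the 2 lowest of each other list; genes outside this rule were named after their values were seen. Symbols and coordinates are from GENCODE, upstream sequences from RefSeq.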

Additional observations from a re-analysis of the deposited data

How the results depend on the processing

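Leaving out a library moved the results most. The number of cell cycle genes called between treatments ranged from 0 to 36 in the knockouts and from 0 to 8 in the controls over the 10 such fits, and it was 3 in the controls with DESeq2. Over the same fits, the gap between the medians of mitosis and replication genes ranged from 0.31 to 0.95 in the controls, from -0.68 to -0.12 between genotypes under water, and from -0.049 to 0.70 for the interaction. The cause was not tested, and the share of all genes called in each fit that leaves out a library is not given here. In the knockouts the other settings called 25 (eBayes without a trend) to 37 (DESeq2) genes. Of these settings, the share of all genes tested that rose is given only for edgeR and DESeq2. The counts therefore describe how stable the calls were, and a change in them is not read as particular to these genes. No genotype comparison and no interaction gained a call under any setting run. Of the 31 members chosen by the rule for values per library, 0 changed sign among those called in the knockouts. Scaling to equal totals shifted the median of all genes in the knockout comparison from 0.01 to 0.13 and called 36.

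With the replicate block, 34 genes were called between treatments in the knockouts and 0 in each other comparison, and the gap between programmes was 1.20 in the knockouts and 0.58 in the controls. The share of all genes tested that was called with the block is not given here. Whether replicate numbers pair the libraries was not settled: of 13 same-numbered pairs 6 had deviations correlated above 0.1 (range -0.12 to 0.49). In a group of 2 libraries the deviations mirror each other, so some of these correlations fix others and cannot decide it. With 2 or 3 libraries a group, small differences were not detectable. Fits of the compared groups alone do not exist for the interaction.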
